A study of Mus musculus with 9 samples.

Results

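The genes described here are 10 genes known as markers of the choroid plexus epithelium, 10 of 20731 gene symbols counted in brain RNA of mice with thrombosis of a cerebral sinus. They are Ttr, Kl, Folr1, Clic6, Kcnj13, Aqp1, Otx2, Cldn2, Slc4a5 and Kcne2. The members were selected by gene symbol, and they were chosen from markers of this cell type while earlier results of these same counts, their levels in the 9 libraries included, were known. Their levels and differences are therefore given as a description, with no test of their own.

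Brain RNA was sequenced from 9 male C57BL/6J mice of 8 to 10 weeks, 3 in each of 3 groups, on day 2 after modelling. In every mouse a thread soaked in ferric chloride induced thrombosis in the superior sagittal sinus (cerebral venous sinus thrombosis, CVST), and the CVST group had this procedure alone. In the CVST_Ligation group the deep cervical lymph nodes of both sides were also tied off, a surgical model that restricts lymphatic drainage of the meninges. The CVST_Ligation_4_PBA group, called the 4-PBA group below, had thrombosis, ligation and 100 mg/kg of 4-phenylbutyric acid (4-PBA), an inhibitor of endoplasmic reticulum stress. The methods place this injection 30 min before modelling, while the description of the data set places it after ligation. The methods speak of solvent for control mice without naming these groups, and no sham-operated mouse was analysed here. The labels name the tissue as brain with no region, whereas cortex is named in the data set's description. Reads counted per mouse ranged from 18100739 to 25091498. Levels are given as CPM (counts relative to the library size after TMM scaling), and the floor of detection was set at 3 counts, which equals 0.114 to 0.163 CPM. This floor covers counting error only.

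The choroid plexus is a folded epithelium in the brain ventricles that secretes cerebrospinal fluid and forms the barrier between blood and this fluid. Its cells make large amounts of transthyretin and carry channels, transporters and tight junctions that move ions and water, and the transcription factor Otx2 maintains their identity. It hangs free in the ventricles, apart from the cortex and the other brain regions. In bulk RNA, fewer epithelial cells and less RNA per cell cannot be told apart.

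All 10 members were detected and all 10 passed edgeR's filter on low counts, which kept 14746 genes. In 8 of them every library had at least 1 count. Of the 90 values, 2 were 0 counts, and 5 were at or under the floor of 3 counts. Levels of different genes were compared per length, as FPKM (fragments scaled by library size and a length per gene). Ttr had the highest level of the 10 in each of the 9 libraries, from 3.49 to 352 times the next member. Its mean over the 9 libraries was 1894 FPKM. The channel gene Kcnj13 followed with a mean of 6.24 FPKM, then Kl with 5.43, Clic6 with 3.85, Folr1 with 3.81, Otx2 with 3.24, Kcne2 with 2.90 and Aqp1 with 2.61 FPKM. At the low end were Cldn2 with 0.814 FPKM and Slc4a5 with 0.595 FPKM. In all 9 neighbouring pairs of this order the ranges over the libraries overlapped. Apart from the first place of Ttr within each library, neighbouring places are therefore not resolved by the spread. Members farther apart could keep their order, as Kcnj13 and Kl were above both Cldn2 and Slc4a5 within each of the 9 libraries.

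Single libraries stood apart in these genes. The library of 4-PBA replicate 1 was the highest of all 9 for 9 members, Aqp1 being the exception with its highest level in 4-PBA replicate 2. Of all genes tested, 9.02% had their highest level in 4-PBA replicate 1. The lowest level was in CVST_Ligation replicate 2 for 5 members, in CVST_Ligation replicate 1 for 3 and in a CVST library for 2 (Otx2 and Cldn2). Of all genes tested, 16.6% were lowest in CVST_Ligation replicate 2. Over the 9 libraries the SD of log2 CPM had a median of 1.34 for the members and 0.32 for all genes tested. Log2 fold changes of the members and of the wider list that involve the 4-PBA group are therefore given with and without its replicate 1.

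**Figure D1:**
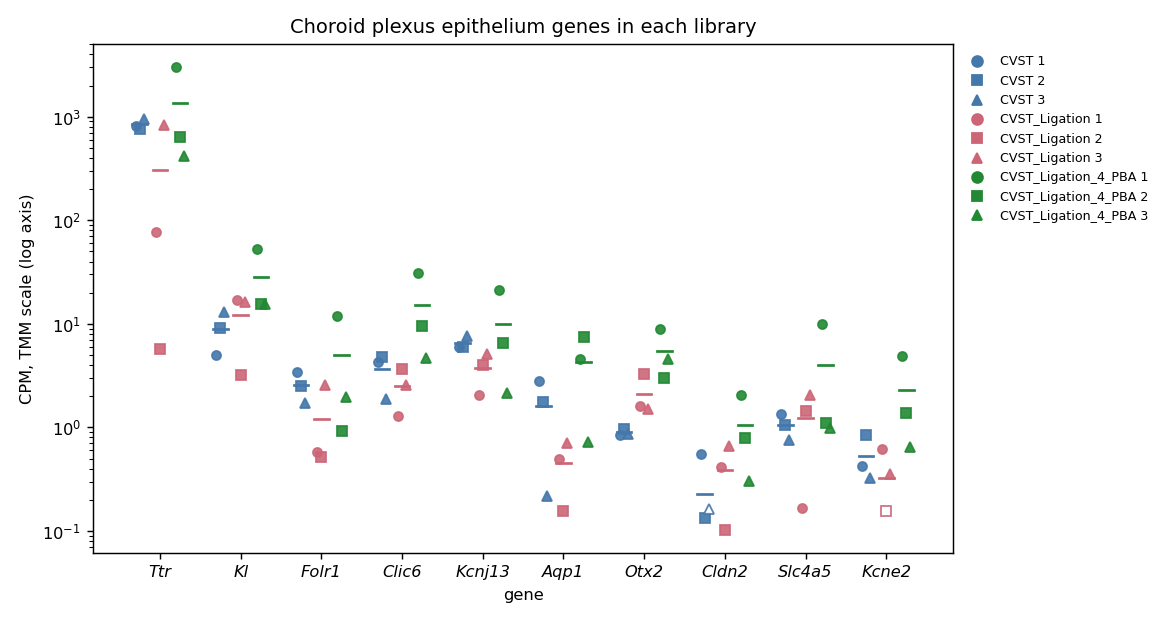
Level of each of the 10 genes in CPM on the TMM scale (log axis) in each library, coloured by group and shaped by replicate, with the group mean as a short line. Open symbols are counts of 0 drawn at the floor of 3 counts, and the 4-PBA replicate 1 library (green circle) is the highest for 9 of the 10 genes.

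Of the secreted products, Ttr encodes transthyretin, the carrier of thyroxine in the cerebrospinal fluid. Ttr had 817, 769 and 961 CPM in CVST replicates 1, 2 and 3, 77.2, 5.72 and 835 CPM in CVST_Ligation replicates 1, 2 and 3, and 3013, 631 and 419.5 CPM in 4-PBA replicates 1, 2 and 3. The CVST libraries lay close together, whereas in CVST_Ligation only replicate 3 was at the CVST level and replicates 1 and 2 were far below every other library. The 4-PBA libraries had 1 value above all others and 2 below the CVST range, so the 3 groups overlapped. The highest library was 527 times the lowest. Group means were 849 ± 100.1 CPM in CVST, 306 ± 459 CPM in CVST_Ligation and 1355 ± 1440.5 CPM in 4-PBA (SD, n = 3). The log2 fold change of Ttr was -1.47 (standard error 1.28) for CVST_Ligation over CVST, 2.15 (standard error 1.31) for 4-PBA over CVST_Ligation and 0.67 (standard error 1.26) for 4-PBA over CVST. Without 4-PBA replicate 1 the values were 0.80 against CVST_Ligation and -0.68 against CVST, so the sign against CVST turned. Leaving out CVST_Ligation replicate 1, 2 or 3 gave -1.02, -0.90 and -4.35 for the first value and 1.70, 1.58 and 5.02 for the second. On the log scale of FPKM, with limma on log2(FPKM + 1), the first value was -3.48 and the second 3.69.

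Kl encodes klotho, a membrane protein that serves as co-receptor of fibroblast growth factor 23 and is also shed into the fluid. Kl had 4.97, 9.14 and 12.9 CPM in CVST replicates 1, 2 and 3, 17.0, 3.20 and 16.4 CPM in CVST_Ligation replicates 1, 2 and 3, and 53.2, 15.7 and 15.5 CPM in 4-PBA replicates 1, 2 and 3. The CVST_Ligation range covered the whole CVST range, and all 4-PBA values lay above the CVST values. Apart from 4-PBA replicate 1, the 4-PBA libraries stood below CVST_Ligation replicates 1 and 3. Its log2 fold change was 0.44 (standard error 0.67) for CVST_Ligation over CVST, 1.20 (standard error 0.67) for 4-PBA over CVST_Ligation and 1.64 (standard error 0.68) for 4-PBA over CVST. Leaving out 4-PBA replicate 1 gave 0.37 against CVST_Ligation and 0.81 against CVST. For CVST_Ligation over CVST the value was 0.12 without CVST_Ligation replicate 1 and 0.89 without CVST_Ligation replicate 2. Without CVST replicate 1 that value was 0.15.

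Folr1 encodes folate receptor alpha, which carries folate across the epithelium into the fluid. Folr1 had 3.44, 2.53 and 1.74 CPM in CVST replicates 1, 2 and 3, 0.579, 0.515 and 2.55 CPM in CVST_Ligation replicates 1, 2 and 3, and 12.0, 0.926 and 1.98 CPM in 4-PBA replicates 1, 2 and 3. Replicates 1 and 2 of CVST_Ligation were below the CVST range and replicate 3 within it, as for Ttr, and 4-PBA replicate 1 was far above the rest. In log2 terms Folr1 differed by -1.08 (standard error 0.93) for CVST_Ligation over CVST, 2.01 (standard error 0.94) for 4-PBA over CVST_Ligation and 0.93 (standard error 0.90) for 4-PBA over CVST. With 4-PBA replicate 1 left out, these became 0.28 against CVST_Ligation and -0.80 against CVST, so the sign against CVST turned. With CVST_Ligation replicate 1, 2 or 3 left out, the first value was -0.74, -0.73 and -2.22 and the second 1.68, 1.66 and 3.15.

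Among the channels, Kcnj13 encodes the inward rectifier Kir7.1 of the apical membrane. Kcnj13 had 5.99, 5.99 and 7.59 CPM in CVST replicates 1, 2 and 3, 2.07, 4.02 and 5.10 CPM in CVST_Ligation replicates 1, 2 and 3, and 21.2, 6.56 and 2.17 CPM in 4-PBA replicates 1, 2 and 3. The 3 CVST_Ligation values were all below the 3 CVST values, while the 4-PBA values reached from the lower end of CVST_Ligation to above CVST. For Kcnj13 the log2 fold change came to -0.81 (standard error 0.67) for CVST_Ligation over CVST, 1.41 (standard error 0.68) for 4-PBA over CVST_Ligation and 0.61 (standard error 0.66) for 4-PBA over CVST, and without 4-PBA replicate 1 to 0.24 against CVST_Ligation and -0.57 against CVST, where the sign turned.

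Kcne2 encodes a small beta subunit of potassium channels. Kcne2 had 0.425, 0.843 and 0.325 CPM in CVST replicates 1, 2 and 3, 0.620, 0 and 0.352 CPM in CVST_Ligation replicates 1, 2 and 3, and 4.93, 1.39 and 0.648 CPM in 4-PBA replicates 1, 2 and 3. These rest on 0 to 91 counts, and the 0 counts of CVST_Ligation replicate 2 allow a level of up to 0.155 CPM. All 4-PBA values were above the CVST_Ligation values, the closest pair by a small margin, and they overlapped CVST. Its log2 fold changes were -0.68 (standard error 1.03) for CVST_Ligation over CVST, 2.77 (standard error 1.01) for 4-PBA over CVST_Ligation and 2.09 (standard error 0.97) for 4-PBA over CVST. After removal of 4-PBA replicate 1 they were 1.61 against CVST_Ligation and 0.93 against CVST. Over 13 alternative settings of the processing, libraries left out included, the value for CVST_Ligation over CVST ranged from -1.53 to -0.14.

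Clic6 encodes a protein of the chloride intracellular channel family. Clic6 had 4.25, 4.83 and 1.90 CPM in CVST replicates 1, 2 and 3, 1.28, 3.66 and 2.55 CPM in CVST_Ligation replicates 1, 2 and 3, and 31.2, 9.64 and 4.72 CPM in 4-PBA replicates 1, 2 and 3. Every 4-PBA value was above every CVST_Ligation value, while 4-PBA replicate 3 lay just under CVST replicate 2. Replicate 1 of the 4-PBA group was 7.88 times the median of the other 8 libraries. On the log2 scale the differences were -0.56 (standard error 0.68) for CVST_Ligation over CVST, 2.60 (standard error 0.70) for 4-PBA over CVST_Ligation and 2.04 (standard error 0.68) for 4-PBA over CVST. Without that library they were 1.54 against CVST_Ligation and 0.98 against CVST.

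Aqp1 encodes the water channel aquaporin-1 of the apical membrane. Aqp1 had 2.80, 1.77 and 0.217 CPM in CVST replicates 1, 2 and 3, 0.496, 0.155 and 0.703 CPM in CVST_Ligation replicates 1, 2 and 3, and 4.55, 7.49 and 0.724 CPM in 4-PBA replicates 1, 2 and 3. Values within CVST and within 4-PBA were widely spread, and the lowest, in CVST_Ligation replicate 2, was 3 counts. The 4-PBA values were above the CVST_Ligation values, although the closest pair had 19 counts (4-PBA replicate 3) and 16 counts (CVST_Ligation replicate 3). The log2 fold change of Aqp1 was -1.81 (standard error 0.99) for CVST_Ligation over CVST, 3.20 (standard error 1.01) for 4-PBA over CVST_Ligation and 1.39 (standard error 0.92) for 4-PBA over CVST. It was 3.16 against CVST_Ligation and 1.35 against CVST without 4-PBA replicate 1, and 2.50 and 0.70 without 4-PBA replicate 2, its highest library. For CVST_Ligation over CVST the value was -1.14 without CVST replicate 1 and -2.33 without CVST replicate 3. With limma on log2(FPKM + 1) that value was -0.77.

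Of the transporters and junction proteins, Slc4a5 encodes a sodium bicarbonate cotransporter. Slc4a5 had 1.36, 1.06 and 0.759 CPM in CVST replicates 1, 2 and 3, 0.165, 1.44 and 2.07 CPM in CVST_Ligation replicates 1, 2 and 3, and 9.92, 1.09 and 0.991 CPM in 4-PBA replicates 1, 2 and 3. The value of CVST_Ligation replicate 1 rests on 4 counts, near the floor. Apart from the high value of 4-PBA replicate 1 and the low one of CVST_Ligation replicate 1, the libraries of the 3 groups overlapped. Its log2 differences were 0.19 (standard error 1.01) for CVST_Ligation over CVST, 1.70 (standard error 1.0) for 4-PBA over CVST_Ligation and 1.89 (standard error 1.01) for 4-PBA over CVST. They were -0.21 against CVST_Ligation and -0.02 against CVST without 4-PBA replicate 1, so both signs turned. The sign between CVST_Ligation and CVST turned too, to -0.43 without CVST_Ligation replicate 3, to -0.01 without CVST replicate 3 and to -0.06 with limma on log2(FPKM + 0.1).

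Cldn2 encodes claudin-2, which forms cation and water pores in tight junctions. Cldn2 had 0.552, 0.133 and 0 CPM in CVST replicates 1, 2 and 3, 0.413, 0.103 and 0.659 CPM in CVST_Ligation replicates 1, 2 and 3, and 2.06, 0.799 and 0.305 CPM in 4-PBA replicates 1, 2 and 3. These are 0 to 38 counts per library, and the 0 counts of CVST replicate 3 allow up to 0.163 CPM. The 3 groups overlapped, with the highest level in 4-PBA replicate 1. For Cldn2 the log2 fold change was 0.73 (standard error 1.10) for CVST_Ligation over CVST, 1.38 (standard error 1.02) for 4-PBA over CVST_Ligation and 2.11 (standard error 1.07) for 4-PBA over CVST, and 0.48 against CVST_Ligation and 1.21 against CVST without 4-PBA replicate 1. CVST replicate 1 held 13 Cldn2 counts, against 3 and 0 in the others of its group, and without it the values against CVST were 2.38 for CVST_Ligation and 3.77 for 4-PBA.

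Otx2 encodes a homeobox transcription factor. Otx2 had 0.850, 0.976 and 0.868 CPM in CVST replicates 1, 2 and 3, 1.61, 3.25 and 1.49 CPM in CVST_Ligation replicates 1, 2 and 3, and 8.99, 3.03 and 4.53 CPM in 4-PBA replicates 1, 2 and 3. All 3 CVST_Ligation values and all 3 4-PBA values were above the 3 CVST values, which were nearly equal. CVST_Ligation replicate 2, the lowest library for Ttr, was the highest of its group for Otx2. The log2 fold change was 1.23 (standard error 0.48) for CVST_Ligation over CVST, 1.38 (standard error 0.46) for 4-PBA over CVST_Ligation and 2.61 (standard error 0.49) for 4-PBA over CVST. Leaving out 4-PBA replicate 1, it was 0.86 against CVST_Ligation and 2.08 against CVST. Without CVST_Ligation replicate 2 the value for CVST_Ligation over CVST was 0.78. Otx2 is also expressed by midbrain dopamine neurons, of which 10 markers summed to 75.1 to 105 CPM in the CVST libraries and to 345 to 569 CPM in the others. The part of these neurons in the level of Otx2 was not tested.

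The comparison of CVST_Ligation with CVST addresses what ligation adds to thrombosis. In this and the next 2 comparisons, markers of brain regions also differed between the groups, as given below. Their bearing on the fold changes was not tested. With edgeR (quasi-likelihood test, p adjusted over all genes by Benjamini-Hochberg), 0 of the 10 members had an adjusted p below 0.05, where 0.0203% of all genes tested did. At an unadjusted p below 0.05 there was 1 member (Otx2, higher), beside 9.64% of all genes. That count was 0 without CVST replicate 1, CVST replicate 2 or CVST_Ligation replicate 2, and 2 without CVST_Ligation replicate 3. The groups did not overlap for 2 members, Kcnj13 lower and Otx2 higher, beside 13.8% of all genes. With DESeq2 0 members and 1.8% of all genes passed the adjusted threshold. The members' log2 fold changes were above 0 for 4 and below 0 for 6, with a median of -0.62, where the median of all genes tested was 0.00. Ttr, Folr1 and Aqp1 had the lowest values of the 10, and Otx2 the highest.

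The 4-PBA group was compared with CVST_Ligation to ask what the compound changes in ligated mice. Hypothalamic markers were also far higher in every 4-PBA library than in any CVST_Ligation library, so the compound is not the only difference seen. By edgeR's adjusted p, 0 members passed, and so did 0% of all genes. At an unadjusted p below 0.05 there were 4 members, Clic6, Aqp1, Otx2 and Kcne2, all higher with 4-PBA, beside 3.23% of all genes. Without 4-PBA replicate 1 there were 2, beside 3.34% of all genes. The groups did not overlap for 3 members (Clic6, Aqp1 and Kcne2) and 7.73% of all genes. DESeq2 gave 1 member below 0.05 after adjustment, Clic6, and 0.15% of all genes. All 10 log2 fold changes were above 0, with a median of 1.85 beside -0.02 for all genes tested, of which 47.0% were above 0. Without 4-PBA replicate 1 the members' median was 0.64, and 9 members and 49.9% of all genes were above 0.

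Between 4-PBA and CVST, which differ by ligation and compound together, edgeR's adjusted p was below 0.05 for 0 members and 0.122% of all genes. The unadjusted p was below 0.05 for 3 members (Kl, Clic6 and Otx2, all higher) and 15.4% of all genes. Without 4-PBA replicate 1 it was so for 1 member and 10.1% of all genes. Without overlap were 2 members, Kl and Otx2, and 23.7% of all genes. With DESeq2 2 members, Clic6 and Otx2, and 5.82% of all genes had an adjusted p below 0.05. Again all 10 log2 fold changes were above 0, with a median of 1.77 beside -0.01 for all genes, of which 48.9% were above 0. Leaving out 4-PBA replicate 1, 6 of the 10 members and 50.7% of all genes were above 0, and the members' median was 0.87. Each pair of these 3 comparisons shares a group, so their values are not independent of each other. Nothing is read from the members' counts beside these shares, since the members were chosen with the contrasts known.

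Relative to Ttr, the other 9 members were not in a fixed proportion. In the 7 libraries other than CVST_Ligation replicates 1 and 2, Kcnj13 had 5.18 to 10.4 counts per 1000 Ttr counts, the narrowest range in terms of fold among the 9. Its ratio was 26.8 in CVST_Ligation replicate 1 and 703 in replicate 2. The ratio of Kcnj13 thus varied 2.01-fold in the 7 libraries and lay above that range in the remaining pair. Folr1 had 1.47 to 4.72 counts per 1000 Ttr counts in the 7 libraries, 7.49 in CVST_Ligation replicate 1 and 90.1 in replicate 2. Kl had 6.09 to 36.9 in the 7 libraries, 221 in CVST_Ligation replicate 1 and 559 in replicate 2. For 8 of the 9 genes the ratio was highest in CVST_Ligation replicate 2, the exception being Kcne2 with its 0 counts there. In that library Ttr had 111 counts, against 78 for Kcnj13, 71 for Clic6, 63 for Otx2 and 62 for Kl. Ttr made up 25.9% of the members' summed CPM there, 76.1% in CVST_Ligation replicate 1, and 93.0% to 97.3% in the 7 libraries.

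**Figure D2:**
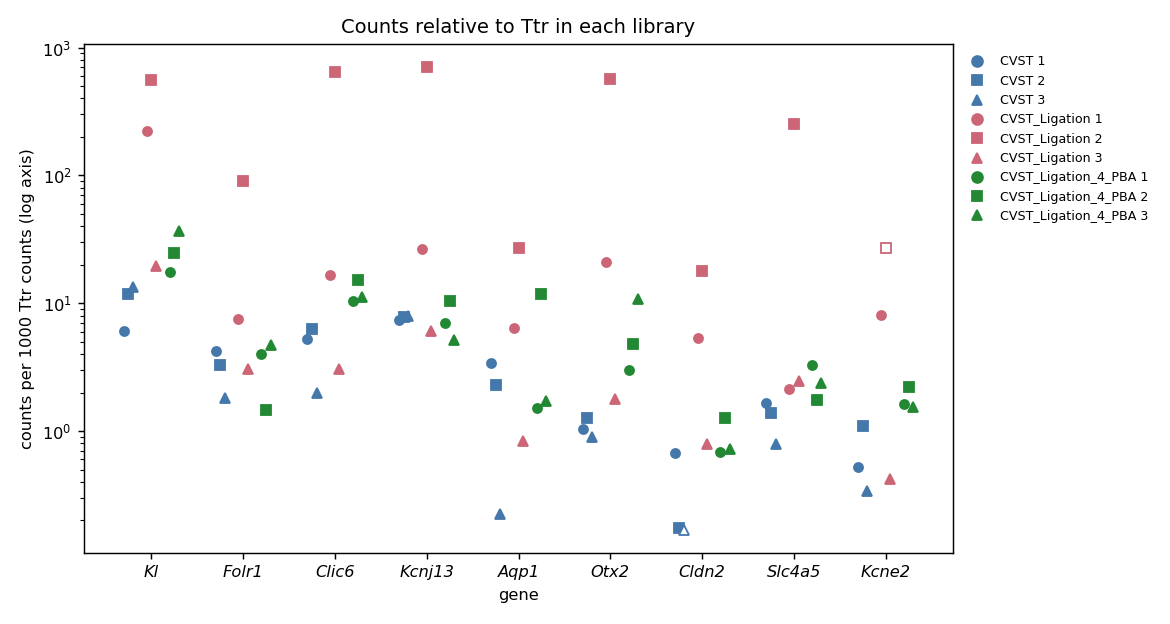
Counts of each gene per 1000 counts of Ttr (log axis) in each library, coloured by group and shaped by replicate. Open symbols are counts of 0 drawn as 3 counts, and CVST_Ligation replicate 2 (red square), where Ttr had 111 counts, lies highest for the 8 genes with a count there.

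Over the 9 libraries, log2 CPM of the members was positively correlated in 44 of 45 pairs, and in 35 without 4-PBA replicate 1. The median Pearson r was 0.56 (median Spearman rho 0.40), and 0.24 without that library. The highest r was 0.85 (rho 0.55), between Kl and Kcne2, and the lowest -0.03 (rho -0.23), between Ttr and Otx2. Ttr and Folr1 had r = 0.80 (rho 0.78) with all libraries and 0.80 without that one. For Otx2 and Kcnj13 r was 0.24 (rho -0.12), and -0.55 without it. The libraries share their groups, and the members' level of 4-PBA replicate 1 enters every pair, so these values describe the libraries and carry no p.

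As a measure of likeness, the log2 CPM of each of 14736 other genes tested was correlated with the mean of the members' standardised log2 CPM over the 9 libraries. The 15 genes of highest r were Calml4, F5, Steap1, Nek5, Drc7, Glis1, Mfrp, Unc45b, Oca2, Ttc29, Tll2, Sostdc1, Prr32, Zfp846 and Ptpn20, with r from 0.91 to 0.83 and Spearman's rho from 0.53 to 0.93. Of these, 5 were in the wider list described next, and all 15 had their highest level in 4-PBA replicate 1. Without the 2 libraries farthest from the median of the members' mean (4-PBA replicate 1 and CVST_Ligation replicate 2), r was above 0.5 for 10 of the 15 and ranged from 0.10 for Unc45b to 0.82 for Calml4. Calml4, a calmodulin-like gene, had 2.68, 2.71 and 2.60 CPM in CVST replicates 1, 2 and 3, 0.661, 0.670 and 2.77 CPM in CVST_Ligation replicates 1, 2 and 3, and 9.81, 4.00 and 2.59 CPM in 4-PBA replicates 1, 2 and 3. Like Ttr, it was low in CVST_Ligation replicates 1 and 2 and near the CVST level in replicate 3. Mfrp, which encodes a frizzled-related membrane protein, ranged from 0.108 to 9.10 CPM, on 2 to 168 counts. Drc7, a component of motile cilia, ranged from 2.07 to 17.7 CPM.

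A wider list of 48 further genes known from this epithelium held 46 that were in the count table, and all 46 were tested. In the likeness measure 41 of them had r above 0, beside 50.3% of all genes tested outside the members. The members' mean, on which r rests, was 1.75 in 4-PBA replicate 1 and 0.43 in the next highest library, 4-PBA replicate 2. No r without 4-PBA replicate 1 was taken for the list. The list's genes had a median r of 0.54, where the median of all genes outside the members was 0.00. Their highest level was in 4-PBA replicate 1 for 26 of 46, among them 8 of 11 secreted products, 3 of 6 genes of receptors and retinoid handling, 8 of 14 transporters, pumps and carbonic anhydrases, 3 of 7 junction and cytoskeleton genes, the transcription factor Msx1 and 3 of 7 others. The summed level of the list varied 2.52-fold between libraries, and that of the 10 members 143-fold, or 9.06-fold without Ttr. In CVST_Ligation replicate 2, where the members had their lowest sum (22.1 CPM), the list summed to 1402 CPM, exceeded only in 4-PBA replicate 1. The list had 10 of its 46 genes lowest in CVST_Ligation replicate 2, beside 16.6% of all genes tested. Among its most abundant genes per length were Enpp2 (autotaxin, a secreted lysophospholipase that oligodendrocytes also make) with a mean of 155 FPKM and Fxyd1 with 86.2 FPKM. Enpp2 had 292, 511 and 272 CPM in CVST replicates 1, 2 and 3, 249, 451 and 349 CPM in CVST_Ligation replicates 1, 2 and 3, and 1234, 443 and 406 CPM in 4-PBA replicates 1, 2 and 3. Only 4-PBA replicate 1 stood apart from the other libraries in Enpp2.

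Between CVST_Ligation and CVST, 0 of the 46 genes had an adjusted p below 0.05 in edgeR's quasi-likelihood test, 8 had an unadjusted p below 0.05 (4 higher and 4 lower), and 2 passed the adjusted threshold with DESeq2 (Htr2c and Epn3). Of all genes, 9.64% had an unadjusted p below 0.05 and 1.8% passed with DESeq2. The median log2 fold change of the list was -0.03, with 21 genes above and 25 below 0. The highest log2 fold changes were those of Epn3, an endocytic adaptor, with 2.62 (standard error 0.63), Htr2c, the serotonin receptor 2C, 1.89 (standard error 0.40), and Igf2, a secreted growth factor, 1.51 (standard error 0.88). Epn3 had 1.02, 1.33 and 1.08 CPM in CVST replicates 1, 2 and 3 and 3.35, 14.997 and 2.99 CPM in CVST_Ligation replicates 1, 2 and 3, and Igf2 had 1.83, 6.39 and 2.50 CPM and 7.85, 20.9 and 1.80 CPM in the same libraries. Both were highest of the 6 in CVST_Ligation replicate 2, and without it the values were 1.46 for Epn3, 1.77 for Htr2c and 0.43 for Igf2. The adjusted p of edgeR (Benjamini-Hochberg over all genes) was 0.286 for Epn3 and 0.25 for Htr2c. Htr2c had 14.1, 6.03 and 16.4 CPM in CVST replicates 1, 2 and 3, 44.8, 53.0 and 37.8 CPM in CVST_Ligation replicates 1, 2 and 3, and 72.6, 54.4 and 30.9 CPM in 4-PBA replicates 1, 2 and 3. All its CVST values were below those of the other groups, although the receptor is also expressed by neurons in many regions. The lowest log2 fold changes were -1.19 (standard error 1.15) for Prr32, -1.13 (standard error 0.70) for Ecrg4, a secreted peptide precursor, and -1.07 (standard error 0.93) for the keratin Krt18. With a library left out these ranged from -3.43 to -0.63, from -1.91 to -0.75 and from -1.99 to -0.52. Ecrg4 had 9.09, 7.45 and 11.4 CPM in CVST replicates 1, 2 and 3, 1.69, 3.30 and 7.78 CPM in CVST_Ligation replicates 1, 2 and 3, and 27.5, 7.07 and 4.65 CPM in 4-PBA replicates 1, 2 and 3. Its lowest values were in CVST_Ligation replicates 1 and 2, as for Ttr and Folr1, and its highest in 4-PBA replicate 1.

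Between 4-PBA and CVST_Ligation, 42 of the 46 log2 fold changes were above 0, with a median of 0.42, where 47.0% of all genes tested were above 0. Without 4-PBA replicate 1, 36 of the 46 were above 0, with a median of 0.25, and 49.9% of all genes. By edgeR's adjusted p 0 passed, 10 had an unadjusted p below 0.05, all higher with 4-PBA, and DESeq2 passed 1, Sostdc1. The shares of all genes were 3.23% at the unadjusted p and 0.15% with DESeq2. With 4-PBA replicate 1 left out, 2 of the 46 and 3.34% of all genes had an unadjusted p below 0.05. The highest values were 3.0 (standard error 1.30) for the membrane protein gene Tmem72, 2.52 (standard error 0.55) for Sostdc1, a secreted antagonist of BMP and Wnt signals, and 2.39 (standard error 0.71) for F5, coagulation factor V. Leaving out 4-PBA replicate 1 gave 3.04 for Tmem72, 2.07 for Sostdc1 and 1.17 for F5, and leaving out 4-PBA replicate 2 gave 2.16, 2.41 and 2.70. Tmem72 rested on few counts, with 0, 3 and 5 counts in CVST_Ligation replicates 1, 2 and 3 and 18, 45 and 5 counts in 4-PBA replicates 1, 2 and 3, and at 0.191 CPM 4-PBA replicate 3 was below CVST_Ligation replicate 3 (0.220 CPM). Sostdc1 had 1.10, 1.06 and 1.14 CPM in CVST replicates 1, 2 and 3, 1.20, 0.876 and 0.967 CPM in CVST_Ligation replicates 1, 2 and 3, and 9.16, 6.77 and 1.71 CPM in 4-PBA replicates 1, 2 and 3. Its 4-PBA values were all above the values of the other groups, with replicate 3 close to them. F5 had 2.00, 5.90 and 2.22 CPM in CVST replicates 1, 2 and 3, 1.65, 1.65 and 2.11 CPM in CVST_Ligation replicates 1, 2 and 3, and 20.5, 4.97 and 3.09 CPM in 4-PBA replicates 1, 2 and 3. It too was higher in every 4-PBA library than in any CVST_Ligation library, but overlapped CVST. The lowest log2 fold changes were -0.26 (standard error 0.55) for Pla2g5, -0.24 (standard error 0.32) for Stra6 and -0.12 (standard error 0.47) for Slc29a4. With 4-PBA replicate 1 left out they were -0.97, -0.20 and -0.16, and the sign of each turned in at least 1 setting with another library left out. Between 4-PBA and CVST, 40 of 46 were above 0 with a median of 0.51, beside 48.9% of all genes. Without 4-PBA replicate 1, 29 were above 0 with a median of 0.26, beside 50.7% of all genes. In that comparison 0 passed edgeR's adjusted threshold, 11 had an unadjusted p below 0.05 (10 higher and 1 lower), and 6 passed with DESeq2, where 15.4% of all genes had an unadjusted p below 0.05 and 5.82% passed with DESeq2. Leaving out 4-PBA replicate 1, 5 of the 46 and 10.1% of all genes had an unadjusted p below 0.05.

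Markers of other cells and regions that a brain sample can hold also differed between the libraries. The list of ependymal cells, the ciliated lining of the ventricles next to the choroid plexus, had 9 genes in the table and summed to 54.6, 59.0 and 88.3 CPM in CVST replicates 1, 2 and 3, 37.3, 61.6 and 56.9 CPM in CVST_Ligation replicates 1, 2 and 3, and 73.4, 63.9 and 69.3 CPM in 4-PBA replicates 1, 2 and 3. It varied 2.37-fold, and its highest library was CVST replicate 3, not 4-PBA replicate 1, although 3 of its 9 genes (Foxj1, Cfap126 and Pifo) were highest in 4-PBA replicate 1. Rarres2 was its most abundant gene, with 18.3 to 34.6 CPM, and none of its genes was at 0 in a library. Meningeal and stromal fibroblast markers (10 genes, Dcn the most abundant) summed to 97.6, 137 and 136 CPM in CVST replicates 1, 2 and 3, 206, 277 and 118 CPM in CVST_Ligation replicates 1, 2 and 3, and 162, 394 and 129.8 CPM in 4-PBA replicates 1, 2 and 3. The highest sum was in 4-PBA replicate 2, the library in which Aqp1, alone among the members, had its highest level.

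Cerebellar neuron markers (10 genes, Calb1 the most abundant) summed to 1914 CPM in CVST_Ligation replicate 2 and to 208 to 363 CPM in the other 8 libraries. Gabra6, a granule cell receptor subunit, had 211 CPM there, 5.23 CPM in CVST_Ligation replicate 3 and 0 in the rest, and Cbln3 and Ppp1r17 were at 0 in at least 1 library. The same library was the lowest for 5 members and 16.6% of all genes tested. Cortical excitatory neuron markers (10 genes, Slc17a7 the most abundant) summed to 2397, 2198 and 2340.2 CPM in CVST replicates 1, 2 and 3, 1781, 665 and 1754 CPM in CVST_Ligation replicates 1, 2 and 3, and 782, 810.0 and 965 CPM in 4-PBA replicates 1, 2 and 3. CVST_Ligation replicate 2 and all 4-PBA libraries were below the remaining CVST_Ligation and CVST libraries.

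Hypothalamic neuron markers (10 genes, Pmch the most abundant) summed to 21.3, 8.16 and 48.3 CPM in CVST replicates 1, 2 and 3, 21.8, 11.5 and 67.0 CPM in CVST_Ligation replicates 1, 2 and 3, and 304, 538 and 629 CPM in 4-PBA replicates 1, 2 and 3. The 4-PBA libraries were far above the others, and Hcrt, Oxt, Avp and Nkx2-1 were at 0 in at least 1 CVST or CVST_Ligation library. Thalamic neuron markers (10 genes, Prkcd the most abundant, Gbx2 at 0 in 1 library) summed to 76.3, 78.4 and 86.3 CPM in CVST replicates 1, 2 and 3, 172, 349 and 315 CPM in CVST_Ligation replicates 1, 2 and 3, and 599, 349 and 698 CPM in 4-PBA replicates 1, 2 and 3. For neither list was 4-PBA replicate 1, the library where most members peaked, the highest. The log2 sums nevertheless correlated with the mean of the members' standardised log2 CPM at r = 0.60 for hypothalamic and 0.40 for thalamic markers over the 9 libraries, beside 0.33 for ependymal markers and -0.38 to 0.23 for the other 8 lists. In the midbrain dopamine list, given beside Otx2, Aldh1a1 was the most abundant gene, and Slc6a3, En1, Pitx3 and Foxa1 were at 0 in at least 1 library. Striatal markers (10 genes, Penk the most abundant) summed to 1934, 1459 and 1075 CPM in CVST replicates 1, 2 and 3. They had 229, 298 and 537 CPM in CVST_Ligation replicates 1, 2 and 3. In 4-PBA replicates 1, 2 and 3 the striatal sums were 537, 1361 and 269 CPM. Hippocampal markers (10 genes, Wfs1) spanned 205 CPM, in CVST_Ligation replicate 2, to 658 CPM, in CVST_Ligation replicate 3. Endothelial markers (10 genes, Slc2a1) spanned 353 to 541 CPM and red blood cell genes (5 genes, Hbb-bs) 152 to 329 CPM. Whether these differences bear on the levels of the choroid plexus genes was not tested.

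**Figure D3:**
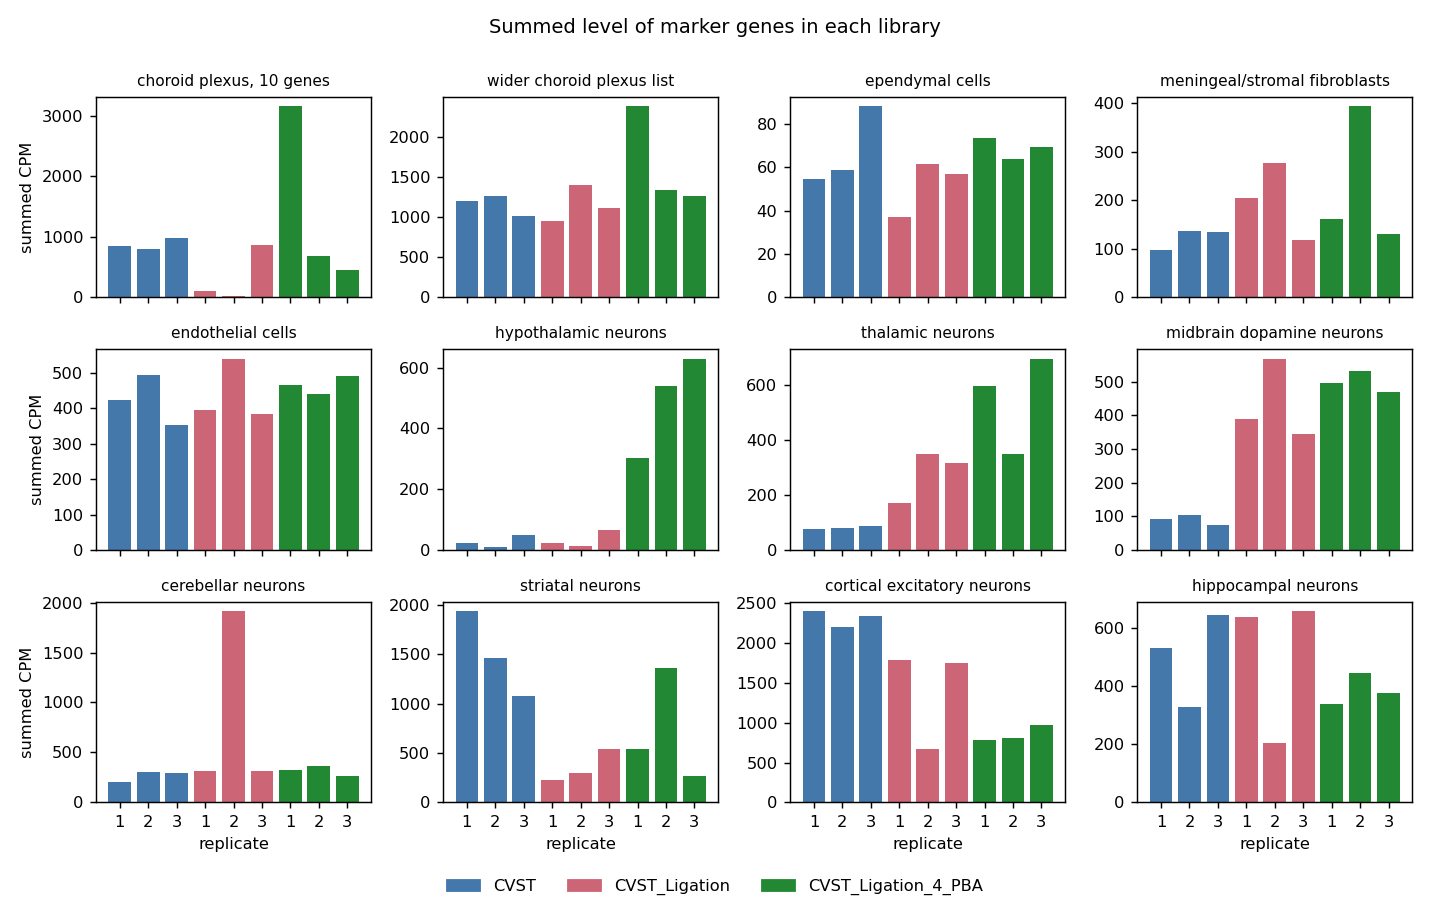
Summed CPM of the 10 choroid plexus genes, the wider choroid plexus list and 10 lists of markers of other cells and regions (all but the red blood cell list), with 1 bar per library coloured by group and replicate numbers below. The sum of the 10 choroid plexus genes, mostly Ttr except in CVST_Ligation replicate 2, peaks in 4-PBA replicate 1. This sum is lowest in CVST_Ligation replicate 2, where the cerebellar markers peak and 5 of the 10 genes have their lowest level.

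In the GENCODE annotation of the mouse genome build GRCm38, the build named in the submitters' processing notes, the members lie on 8 chromosomes. Kcne2 (chr16:92292389-92298129 on the plus strand) and Clic6 (chr16:92485736-92541243 on the plus strand) are both on chromosome 16, 187606 bases apart, and Aqp1 and Slc4a5 are both on chromosome 6. Kcnj13 lies within Gigyf2, which is transcribed from the other strand and had 47.5 to 90.1 CPM. Folr1 overlaps Anapc15 on the other strand, with 13.8 to 22.1 CPM. Otx2 overlaps Otx2os1 on the other strand and Gm49154 on its own strand, and Clic6 overlaps 2410124H12Rik on its own strand, all 3 absent from the count table. The methods name an orientation mode for the alignment, while the use of strand in counting is not given in the sources used here, so the counts of these 4 members are uncertain where they overlap their partners.

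Promoters were compared because most members were highest in the same library. RefSeq's table of GRCm38.p6 promoters, with 250 bases before and 50 after each transcript start, matched 7 of the 10 members with 11 starts. The motif TAATCC, the core that OTX proteins are known to bind, was sought with its reverse complement GGATTA and was present in 1 of the 11 (an Otx2 start) and in 7.06% of all 32851 promoters. The letters TATAAA (reverse TTTATA), those of a TATA box, were present in 4 of the 11 promoters, of Kcnj13, Cldn2, Slc4a5 and Otx2, and in 13.6% of all promoters. In the members' promoters no match of one motif shared bases with a match of the other, and a match is a run of letters, not a known site. Ttr, Folr1 and Clic6 are named only.

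The following stretches end at the base before the transcript start and are shown because their TATAAA, in capitals, lies closest to the start among the members, with its first base 29 bases before the start in Kcnj13 and 35 in Cldn2. That of Kcnj13 is chr1:87394730-87394818 on the minus strand, inside an intron of Gigyf2, and that of Cldn2 is chrX:139800713-139800807 on the plus strand (RefSeq, GRCm38.p6).
Kcnj13: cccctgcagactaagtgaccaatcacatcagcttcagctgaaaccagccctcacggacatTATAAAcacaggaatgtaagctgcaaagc
Cldn2: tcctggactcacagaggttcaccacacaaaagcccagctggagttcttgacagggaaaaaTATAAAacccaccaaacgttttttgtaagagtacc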

How the data were processed

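RNA of 9 mouse brain libraries in 3 groups was analysed, with groups and replicate numbers taken from the sample labels. According to the methods, the authors controlled read quality with fastp and used HISAT2 in an orientation mode for alignment. StringTie then served for assembly and RSEM for quantification, and the submitters' processing notes name mm10 and GRCm38. The authors deposited a count of reads for each of 20731 gene symbols, whole numbers with no normalization, and the program that counted the reads, and whether counting used strand, are not given in the sources used here. The authors deposited a second matrix that the methods call TPM, but its values are FPKM, since each divided into its count and library total gives 1 whole-number length per gene in 17446 genes (tolerance 1e-06) and its columns sum to 780195 to 879696.

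The counts were fitted with edgeR 4.0.16 (R 4.3.3) after TMM scaling, with filterByExpr by group (14746 genes kept), a quasi-likelihood fit of the 3 groups without covariates, and adjustment of p over all genes tested by the method of Benjamini and Hochberg, with 0.05 as the threshold. The fit was tested on simulated data. FPKM was used for levels between genes. Of the lengths behind FPKM, 74.8% were multiples of 3, and what part of each gene they cover was not tested. The members and lists were chosen with earlier results of these data known. Named genes were all members; from the wider list, the 3 highest and 3 lowest log2 fold changes in CVST_Ligation versus CVST and in 4-PBA versus CVST_Ligation, the 3 of highest FPKM and any called; the 15 most like genes; the most abundant gene and genes at 0 of each other list; and overlapping genes. One gene that this rule names is not reported here. Alternatives were DESeq2 1.42.0, its size factors or total counts in edgeR, no filter or at least 10 counts in every library, only the groups compared, a replicate block, limma 3.58.1 on log2(FPKM + 1) or log2(FPKM + 0.1), and leaving out each library. Correlations and counts of members above 0 without 4-PBA replicate 1, wider-list values with a library left out and ratios to Ttr over 7 libraries were chosen after seeing the data. Other values and plots were made in Python 3.11.15 with matplotlib 3.10.9.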

Additional observations from a re-analysis of the deposited data

How the results depend on the processing

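In CVST_Ligation versus CVST, edgeR called 3 genes. The count was 264 with DESeq2, 0 with at least 10 counts in every library, 1 with only the 2 groups compared, 11 with limma on log2(FPKM + 0.1), and 0 to 7 with a library left out. Of the wider list 0 genes were called, 2 with DESeq2. Members with an unadjusted p below 0.05 numbered 1, and 0 to 2 with a library left out. The members' median log2 fold change ranged from -0.80 to -0.25 with a library left out.

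In 4-PBA versus CVST_Ligation, edgeR called 0 genes (476 at an unadjusted p below 0.05). The count was 22 with DESeq2, 2 with limma on log2(FPKM + 1), and 0 to 2 with a library left out. DESeq2 called 1 gene of the wider list and 1 member, where edgeR called 0 of each. Members with an unadjusted p below 0.05 numbered 4, 2 with at least 10 counts in every library, a filter that keeps 6 members, and 2 to 6 with a library left out. The median ranged from 0.64 (without 4-PBA replicate 1) to 2.47 (without CVST_Ligation replicate 3).

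In 4-PBA versus CVST, edgeR called 18 genes. The count was 855 with DESeq2, 112 without a filter, 6 with at least 10 counts, 56 and 69 with limma on log2(FPKM + 1) and log2(FPKM + 0.1), 234 with only the 2 groups compared, and 2 to 162 with a library left out. Of the wider list 0 genes were called, 6 with DESeq2, 2 without a filter, 1 with only the 2 groups compared, and 0 to 1 with a library left out. Of the members 0 were called, 2 with DESeq2, 1 without a filter and 1 with only the 2 groups compared. Members with an unadjusted p below 0.05 numbered 3, 5 with DESeq2, 5 with limma on log2(FPKM + 1), and 1 to 7 with a library left out. The median ranged from 0.87 to 2.15 with a library left out. Apart from the smaller numbers of genes or libraries named, the cause of these differences was not tested.

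With the replicate number as a block, 1 gene was called in CVST_Ligation versus CVST and 1 in 4-PBA versus CVST_Ligation, and the members' medians were -0.56, 1.45 and 1.45 in the order above. Deviations of same-numbered libraries correlated at -0.05 to 0.32 over 9 pairs. Differently numbered libraries were not set beside them, so these values do not decide whether the numbers mark pairs. The numbers were not used as pairs in the main fit. Values of Cldn2, Kcne2, Aqp1 and, in CVST_Ligation replicate 1, Slc4a5 rest on few counts, which limits their precision.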
